A study of Nothobranchius furzeri with 16 samples.

Results

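The translated profile of the killifish brain was taken as the 356 named genes that carried ribosome footprints in at least 5 of 8 libraries, out of 28494 rows of the footprint table and 6468 rows above 0 in any library. The libraries were made from whole brain of the turquoise killifish Nothobranchius furzeri, an annual fish with a short life, using males of the MZM-04/10p strain that were 6 weeks (young, 4 libraries) or 26 weeks old (old, 4 libraries). The labels name no treatment or allele for either age, fish of both ages were killed at 10 a.m. in a fasted state, and no ribosomal RNA was depleted. Whether each library stands for 1 fish is not stated in the labels, and the spread behind every p-value may therefore be partly technical. Before the members were chosen, 4 rows that held nearly all signal (BX296557.7, PPP1R9A(2of2), POLR1B and SLC22A16(1of2)) were left out. Each library was then rescaled to 1000000, and values are given on that scale as TPM, a level per gene length. Another 15 rows were above 0 in at least 5 libraries but carry an identifier in place of a gene name, and were not counted as members. A suffix such as (1of2) marks 1 of several rows with the same symbol, here called copies, among which reads may be split. Of the 356 members, 162 carry such a suffix. How alike the copies are is not stated in the labels.

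Ribosome footprinting digests the RNA that is not covered by a ribosome and sequences the short pieces that remain, so that a gene is seen in proportion to the ribosomes on its messenger RNA. The brain is known for a large translation output of cytoskeletal, synaptic and metabolic proteins, and the brain of teleost fish in addition for ependymin, a glycoprotein secreted into the cerebrospinal fluid. Fish brain also holds radial glia, which persist in the adult, and myelin.

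Very few footprints lay on these genes, and the libraries differed widely in how many. The 4 rows that were left out held 96.6%, 95.8%, 96.2% and 90.3% of the signal in young replicates 1 to 4 and 94.5%, 94.5%, 93.1% and 99.5% in old replicates 1 to 4 (difference of means 0.699 percentage points, exact permutation p = 0.771, two-sided, n = 4 per age, where 0.0286 is the smallest p possible). Old replicate 4 and young replicate 4 formed the upper and lower end of this range. Reads were recovered as the smallest whole numbers that fit the FPKM values of a gene across libraries, for 6384 of the 6472 rows above 0. A row above 0 in a single library was given 1 read by construction, so that this share is no check of the method. Recovered counts are therefore lower bounds, mostly for rows above 0 in few libraries. Of the 356 members, each above 0 in at least 5 libraries, 325 fitted whole multiples of 1 read. Young libraries held 2029, 963, 810 and 296 recovered reads and old libraries 3859, 2942, 3369 and 1816. Young libraries had 1486, 789, 672 and 258 genes above 0, and old libraries had 2601, 2088, 2372 and 1375. Young replicate 1 lay above old replicate 4, so that the ages overlapped (exact permutation p = 0.0571, two-sided, n = 4 per age). Since each library was rescaled to the same total, 1 read was worth 14.3 times as many TPM in young replicate 4 as in old replicate 1, and 1.17 to 4.73 times as many in the other libraries. A count of 0 reads allows a share of up to 1.01% of recovered reads in young replicate 4 and up to 0.0777% in old replicate 1. These limits cover counting error only and rest on the recovered totals, which are lower bounds.

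**Figure D1:**
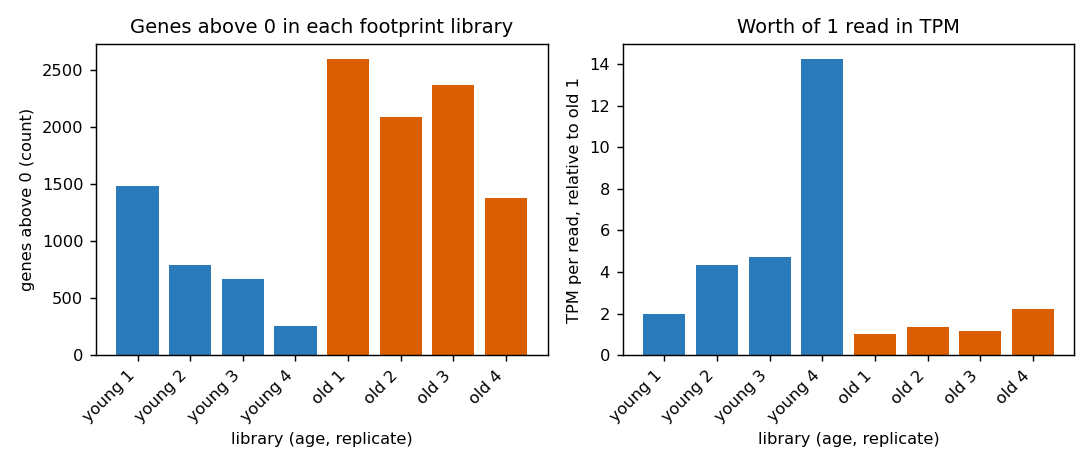
Genes above 0 in each footprint library (left, count of genes without the 4 dominant rows) and the number of TPM that 1 read is worth relative to old replicate 1 (right), with bars for young replicates 1 to 4 in blue and old replicates 1 to 4 in orange. Genes above 0 range from 258 in young replicate 4 to 2601 in old replicate 1, and 1 read in young replicate 4 is worth 14.3 times as much as in old replicate 1.

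Of the 356 members, 23 were above 0 in all 8 libraries, 61 in 7, 103 in 6 and 169 in 5. A gene could not enter on 1 age alone, and the old libraries carried most of the entries. All 4 old libraries were above 0 for 227 members and all 4 young libraries for 29. For 72 members the 5 libraries were all 4 old ones and 1 young one. The members just inside the threshold, above 0 in 5 libraries, had a median level of 309 TPM (44.9 to 4028), and the 278 named genes just outside it, above 0 in 4 libraries, had a median of 182 TPM (20.2 to 9882). Reads were recovered for 325 members. Summed over the 8 libraries these members held between 5 and 98 reads each, with a median of 11, and 131 of them held fewer than 10. Of their 1891 values above 0, 852 (45.1%) were a single read. The members took 31.1%, 34.3%, 34.5% and 33.2% of TPM in young libraries and 23.5%, 28.2%, 26.4% and 33.5% in old ones.

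Old and young libraries were first compared with limma on log2(TPM + 1), over the 6463 genes whose mean reached 1 TPM. No gene passed an adjusted p of 0.05 (0 of 6463, background 0%), and the lowest limma adjusted p was 0.472. At an unadjusted p under 0.05, 191 genes were higher in old libraries (2.96% of those tested) and 7 were lower (0.108%). Among the 356 members these counts were 55 and 1. They depended on the scaling and the libraries: with the dominant rows kept they were 8 and 0 among the members and 77 and 9 among all genes, and without young replicate 4 they were 45 and 15 and 121 and 32. A fold change on this scale mostly records whether a gene was above 0: the median was 1.90 on the log2 scale over all genes tested and 2.09 over the members, with 277 members above 0 and 79 below. On the ratio of mean TPM the sign turned, with a median log2 ratio of -0.11 over the members (168 higher and 188 lower in old) and -0.67 over the 1581 genes above 0 at both ages. The members were chosen by the number of libraries in which they were above 0. For 72 of them these were all 4 old libraries and 1 young one. The counts of 55 and 1 are therefore no result about the members apart from that choice. The old libraries also held more recovered reads (11986 against 4098). The part of the choice and of the reads in the medians above was not tested. Without young replicate 4 the members' median log2 fold change was 0.60. Leaving out young replicate 1 gave 4 called genes, and leaving out young replicate 4 gave 2. The former were the members COII(1of3), CPLX1(1of2) and TUBA1B(3of5) and a row without a gene name, all higher in old, and the latter COII(1of3), higher in old, and HMGB1(1of2), lower in old and not a member. Among the young libraries, COII(1of3), CPLX1(1of2) and TUBA1B(3of5) were above 0 in young replicate 1 alone. Leaving out young replicate 1 therefore left only young values of 0 for them. HMGB1(1of2) was at 0 in young replicate 4, so that leaving it out removed a young value of 0.

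Secreted proteins headed the profile when reads were counted. EPD (ependymin) held 32 reads in young and 66 in old libraries, as many as TFA (transferrin, the iron carrier), and both led the 325 members with recovered reads. EPD lay at 13163, 15288, 18800.0 and 0 TPM in young replicates 1 to 4 and at 8391, 6013, 14448 and 8866 TPM in old replicates 1 to 4. It was thus at 0 in young replicate 4, the library with the fewest reads, and the 3 other young libraries overlapped with the old ones. TFA lay at 8042, 5004, 2735 and 5497 TPM in young libraries and 4626, 3674, 5629.9 and 1289.7 TPM in old ones. APOA1, the main apolipoprotein of high-density lipoprotein, lay at 7783, 4519.5, 6175 and 3724 TPM in young libraries and 4178, 6399.8, 4271 and 3495 TPM in old ones. Both were above 0 in every library and their ages overlapped, with log2 fold changes of -0.57 (standard error 1.57, limma adjusted p = 0.8) and -0.25 (standard error 1.51, limma adjusted p = 0.931), which both turned above 0 with median-of-ratios scaling. APOA2, another lipoprotein protein, was at 0 in young replicates 2 and 4 and lay between 1801 and 2200 TPM in the 4 old libraries. PRSS23(2of2), a secreted serine protease, held 58 reads and had means of 2527 ± 684 and 1297 ± 332 TPM (SD, n = 4 per age). Of the 9 tested genes of the list of plasma proteins and lipid carriers, which holds TFA, APOA1 and APOA2, 2 were higher and 0 lower in old libraries at an unadjusted p under 0.05, beside 2.96% and 0.108% of all genes, and the median log2 fold change was 4.73, beside 1.90 over all genes. The share of the list did not follow this sign, at 1.60% ± 0.434 of TPM in young and 1.43% ± 0.334 in old libraries (SD, n = 4 per age) and 1.69% ± 0.529 and 1.56% ± 0.402 of recovered reads, with overlap on both measures.

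**Figure D2:**
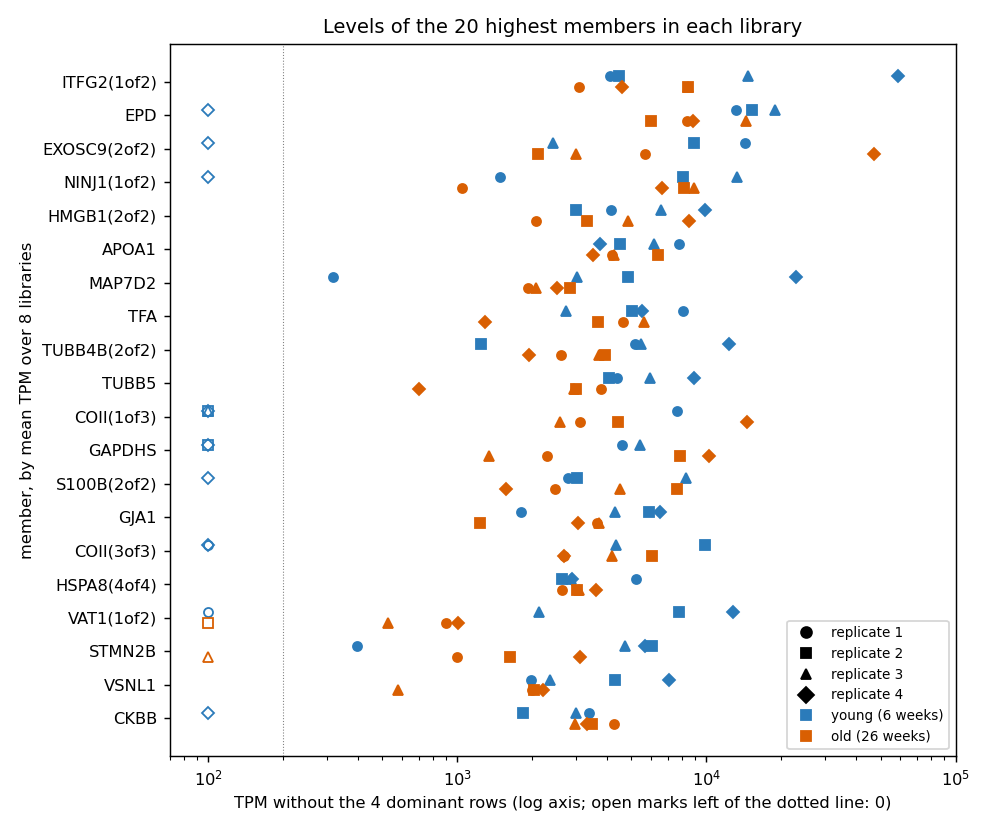
Level of the 20 members with the highest mean TPM in each library, on a log axis, with young libraries in blue, old libraries in orange, 1 mark shape per replicate number, and open marks at the left for 0. ITFG2(1of2) in young replicate 4 (58762 TPM) and EXOSC9(2of2) in old replicate 4 (47012 TPM) lie far above their other libraries.

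By TPM the order was different. ITFG2(1of2), a subunit of the KICSTOR complex that acts on nutrient signalling in mammals, ranked 1 among the members with 28 reads in all. Its levels were 4094, 4458, 14618 and 58762 TPM in young libraries and 3090.3, 8416, 8425 and 4596 TPM in old ones. The highest value, in young replicate 4, rested on 4 reads, each worth 14691 TPM there, against 1030 TPM per read in old replicate 1. EXOSC9(2of2), a subunit of the RNA exosome, which degrades RNA, had 79 reads and lay at 14299.7, 8897, 2431 and 0 TPM in young libraries and 5654, 2099.8, 3003 and 47012 TPM in old ones. Old replicate 4 alone held 41 of these reads, and the other old libraries held 3 to 11. NINJ1(1of2), a membrane protein that takes part in the rupture of dying cells in mammals, lay at 1480.2, 8059, 13214 and 0 TPM in young libraries and 1048, 8115, 8922 and 6647 TPM in old ones. MAP7D2, a microtubule-binding protein, lay at 318, 4856, 3033 and 22861 TPM in young libraries and 1924, 2838, 2060.4 and 2504 TPM in old ones. Young libraries therefore held both the lowest and the highest MAP7D2 value, with 1 read in young replicate 1 and 10 in young replicate 4. VAT1(1of2), a protein named after synaptic vesicles, lay at 0, 7786, 2128 and 12829.9 TPM in young libraries and 899.7, 0, 526 and 1004 TPM in old ones, from 11 reads in all. GJA1 (connexin 43, a gap junction protein of astroglia in mammals) was above 0 in every library, at 1807, 5902, 4301 and 6484 TPM in young libraries and 3637, 1238, 3719 and 3043 TPM in old ones.

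The list of tubulins and other cytoskeletal genes had 35 of the 364 rows as members, beside 34 for the neuron list. It took 3.34% to 4.80% of TPM in young and 3.42% to 4.45% in old libraries. Its symbol pattern also took in the member MAP4K4(3of3), which is not a cytoskeletal gene. TUBB4B(2of2), a beta-tubulin, lay at 5163, 1249, 5463 and 12352 TPM in young libraries and 2598, 3931, 3711 and 1933 TPM in old ones, and these overlapped. TUBB5, another beta-tubulin, lay at 4361, 4069.7, 5931 and 8941 TPM in young libraries and 3762, 2988, 2930.3 and 699 TPM in old ones. All 4 old values of TUBB5 were below all 4 young ones. Its log2 fold change was -1.34 with a standard error of 1.61 (limma adjusted p = 0.495). STMN2B, a stathmin that acts on growing microtubules in neurons, lay at 396, 6030.3, 4708 and 5678 TPM in young libraries and 995, 1626, 0 and 3109 TPM in old ones. ACTG1(2of2), a cytoplasmic actin, held 69 reads and lay between 2037 and 3337 TPM in the old libraries, within the young range of 0 to 5820 TPM. TUBA1B(3of5), an alpha-tubulin, was above 0 in young replicate 1 and in all 4 old libraries, where it lay between 2261 and 4275 TPM. Of the 146 tested genes of the cytoskeletal list, 6 were higher and 0 lower in old libraries (unadjusted p under 0.05), beside 2.96% and 0.108% of all genes. Their median log2 fold change was 1.96, beside 1.90 over all genes.

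The neuron list as a whole was above 0 in every library. Of its members, only TUBB5, VSNL1, CALM2A(3of3) and CPLX1(2of2) were above 0 in every library. The neuron list had 34 of the 177 rows among the members, several of which are also in the cytoskeletal, synaptic or calmodulin lists. Its symbol pattern took in the calmodulins and TUBB5, which are not specific to neurons. The list took 3.64% to 5.03% of TPM in young and 3.79% to 4.67% in old libraries. VSNL1, a neuronal calcium sensor, lay at 1973, 4296, 2348 and 7079.6 TPM in young libraries and 1986, 2028, 580.1 and 2215 TPM in old ones. CPLX1 (complexin, which binds the SNARE complex before vesicle release) was a member with both of its copies, which had their higher means at different ages. CPLX1(1of2) lay at 2352, 0, 0 and 0 TPM in young libraries and 1184, 4836, 4149.6 and 2640.5 TPM in old ones, from 9 reads. CPLX1(2of2) lay at 949, 517, 565 and 1703 TPM in young libraries and 119, 325, 139.5 and 266 TPM in old ones, from 12 reads, with all old values below all young ones (log2 fold change -2.08, standard error 2.32, limma adjusted p = 0.472). Reads can be shared between copies, and the difference between the 2 copies was not tested. Calmodulin was a member with all 3 copies of CALM2A, of which CALM2A(3of3) lay at 2925, 910.0, 1989 and 2999 TPM in young libraries and 2103, 1432, 1720.0 and 469 TPM in old ones. Of 103 neuron genes tested, 6 were higher and 0 lower in old libraries (unadjusted p under 0.05), beside 2.96% and 0.108% of all genes. The median log2 fold change of the neuron list was 2.20.

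Synaptic vesicle and release genes added 24 of the 325 rows. Besides the complexins, SNCB (beta-synuclein), VAMP2(3of3), a vesicle SNARE, and SNAP25(3of3), a plasma membrane SNARE, were members. VAMP2(3of3) held 54 reads, at 2325, 1558, 426 and 0 TPM in young libraries and 900.0, 1348, 631 and 1807 TPM in old ones. The list took 1.47% to 3.07% of TPM in young and 3.16% to 3.42% in old libraries, without overlap. Recovered reads are not divided by gene length. The list's share of them was 2.03% to 4.29% in young and 3.38% to 4.04% in old libraries, with overlap. Of the 27 lists with a gene above 0, the TPM share of 2 lay higher in all old libraries than in all young ones, namely this list and respiration, and that of 0 lay lower. Of 147 synaptic genes tested, 8 were higher and 0 lower in old libraries (unadjusted p under 0.05), beside 2.96% and 0.108% of all genes. Ion channels, pumps and receptors gave 15 of the 730 rows and 1.20% to 3.32% of TPM in young against 2.04% to 2.96% in old libraries.

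Glial genes were among the higher members. S100B(2of2), a calcium-binding protein of astroglia, lay at 2789.7, 3037, 8301 and 0 TPM in young libraries and 2457, 7647, 4511 and 1566 TPM in old ones. SLC1A2B, a glutamate transporter of astroglia, lay at 519.6, 2263, 1237 and 0 TPM in young libraries and 1307, 2849, 3361 and 4667 TPM in old ones. GFAP, the glial intermediate filament, lay at 0, 0, 799 and 0 TPM in young libraries and 507, 1150.3, 789.6 and 1131 TPM in old ones, with 1 read in young and 15 in old ones. The single young read of GFAP was worth 799 TPM, within the old range, so that the ages overlapped. APOEB, an apolipoprotein E, was above 0 in 3 young and 2 old libraries, with 1 read in each. The astroglia list as a whole took 0.496% to 1.59% of TPM in young and 0.520% to 1.52% in old libraries. Of 9 astroglial genes tested, 2 were higher and 0 lower in old libraries (unadjusted p under 0.05), beside 2.96% and 0.108% of all genes. GLUL, AQP4 and SLC1A3B of the list were at 0 in all libraries. Among myelin genes, MBPA (myelin basic protein) lay at 458, 3987, 0 and 9854 TPM in young libraries and 1612, 627, 538 and 514 TPM in old ones. The 4 old MBPA values all lay within the young range. The myelin list had 6 of the 34 rows as members and took 0.476% to 2.00% of TPM in young and 0.463% to 0.854% in old libraries. Its symbol pattern also took in CNPY1, CNPY2(1of2) and MPZL1, which are not myelin genes. The member GPM6BA, which is not specific to myelin, held 2 of the list's 32 young reads and 28 of its 92 old ones. In these bulk libraries, fewer cells of a type and fewer footprints per cell cannot be told apart.

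Genes of energy metabolism made up another group. The glycolysis and energy list had 14 of the 86 rows as members and took 1.52% to 2.50% of TPM in young and 1.60% to 2.94% in old libraries. CKBB, a brain-type creatine kinase, lay at 3368, 1834, 3007 and 0 TPM in young libraries and 4237, 3462, 2971 and 3309 TPM in old ones, with 64 reads in all. GAPDHS, a glyceraldehyde-3-phosphate dehydrogenase, lay at 4566, 0, 5435 and 0 TPM in young libraries and 2298, 7823, 1342 and 10252 TPM in old ones, with 15 reads. ENO1A (enolase) and TPI1(1of2) (triosephosphate isomerase) were members too, the latter above 0 in every library. COII(1of3), a copy of the mitochondrially encoded cytochrome c oxidase subunit II, lay at 7645, 0, 0 and 0 TPM in young libraries and 3098, 4412, 2579 and 14489.7 TPM in old ones. The value in young replicate 1 fell within the old range, and the other young libraries were at 0. COII(3of3) lay at 0, 9890.2, 4324 and 0 TPM in young libraries and 2673, 6066, 4164 and 2675 TPM in old ones, and reads of both copies could not be recovered. The respiration list, which holds nuclear genes, took 0.354% to 1.96% of TPM in young and 2.03% to 3.29% in old libraries without overlap, but 0.676% to 1.36% and 1.17% to 1.98% of recovered reads, with overlap. Its member ATP5A1(1of2), the alpha subunit of the ATP synthase, lay at 322, 701, 767 and 2312 TPM in young libraries and 648, 442, 379 and 1446 TPM in old ones. Of 72 respiration genes tested, 4 were higher and 0 lower in old libraries (unadjusted p under 0.05), beside 2.96% and 0.108% of all genes.

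Genes of protein synthesis and folding formed a further group. The small ribosomal subunit list had 7 of the 24 rows as members and the large subunit list 8 of the 39 rows. Small subunit genes took 0.247% to 1.14% of TPM in young and 0.995% to 2.15% in old libraries, and large subunit genes 1.27% to 4.42% and 0.845% to 3.51%. These shares overlapped between the ages for both subunits. RPL14, a large subunit protein, lay at 1156, 1679, 918 and 2766 TPM in young libraries and 388, 0, 227 and 0 TPM in old ones, all old values below all young ones, from 10 reads. Its log2 fold change was -6.43 with a standard error of 2.61 (limma adjusted p = 0.472). RPS10, a small subunit protein, lay at 352, 0, 0 and 0 TPM in young libraries and 531, 482, 827 and 395 TPM in old ones, all old values above all young ones, from 11 reads (log2 fold change 6.96, standard error 2.91, limma adjusted p = 0.472). EEF1A1, the elongation factor that brings transfer RNA to the ribosome, was above 0 in every library, at 2162 ± 989 TPM in young libraries and 1654 ± 514 TPM in old ones (SD, n = 4 per age). The heat shock cognate HSPA8(4of4) lay at 5222, 2624, 2869 and 2883 TPM in young libraries and 2628, 3028, 3071 and 3608 TPM in old ones, with young replicate 1 above the rest. HSP90AB1, a cytosolic chaperone, lay at 2882, 3138, 2745 and 2069 TPM in young libraries and 2466, 1778, 847 and 2588 TPM in old ones. Of the 21 small subunit, 35 large subunit and 69 chaperone and proteasome genes tested, 3, 2 and 5 were higher and 0, 1 and 0 lower in old libraries at an unadjusted p under 0.05. Over all genes tested, 2.96% were higher and 0.108% lower.

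Nuclear proteins and proteins that bind RNA completed the larger groups. HMGB1(2of2), a chromatin protein, was above 0 in every library, at 4130.2, 2998, 6554 and 9881 TPM in young libraries and 2078, 3302, 4857 and 8501 TPM in old ones. PTMAA (prothymosin alpha) and the RNA-binding proteins HNRNPA0L(2of3) and HNRNPABA were also above 0 in all 8 libraries. The splicing and RNA-binding list had 18 of the 275 rows as members and took 2.4% to 3.94% of TPM in young and 1.64% to 2.66% in old libraries. Its share of recovered reads was 2.91% to 5.41% in young and 2.34% to 3.14% in old libraries, and both measures overlapped between the ages. Of 146 splicing and RNA-binding genes tested, 2 were higher and 0 lower in old libraries at an unadjusted p under 0.05. Over all genes tested, 2.96% were higher and 0.108% lower. The median log2 fold change of the list was 1.81. LUC7L3, a splicing protein, lay at 1217, 0, 966 and 8736 TPM in young libraries and 0, 834, 0 and 455 TPM in old ones, with 3 reads behind its highest value.

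Several smaller groups were also among the members. The lysosome and V-ATPase list had 5 of the 55 rows, 4 of them subunits of the proton pump that acidifies lysosomes and synaptic vesicles. ATP6V1E1B lay at 0, 0, 3825 and 0 TPM in young libraries and 809, 3304, 2835 and 1804 TPM in old ones, from 9 reads. ATP6V0C(1of2) lay at 486, 1059, 0 and 0 TPM in young libraries and 245, 667, 1144 and 2730.1 TPM in old ones. PSAP(1of3) (prosaposin, the precursor of lipid-degrading cofactors) was above 0 in young replicate 1 and in all old libraries. Its young value of 1381 TPM lay within the old range of 463 to 1893 TPM. Of the 29 tested genes of this list, 6 were higher and 0 lower in old libraries at an unadjusted p under 0.05, beside 2.96% and 0.108% of all genes, and their median was 4.23 on the log2 scale, beside 1.90. The list took 0.421% to 1.58% of TPM in young and 0.434% to 1.74% in old libraries. Proteins of the regulated secretory pathway were represented by SCG2B, CHGB and SCG3, of the granin family of dense core vesicles, and by CPE, which trims peptide hormones. SCG2B lay at 845, 0, 670.3 and 0 TPM in young libraries and 708, 1544, 662 and 948 TPM in old ones, so that the 4 old values spanned 662 to 1544 TPM and 2 young libraries were at 0. Of the 25 tested genes of this list, 1 was higher and 0 lower in old libraries at an unadjusted p under 0.05. The 14-3-3 proteins, adaptors that bind phosphorylated proteins, gave 4 members, of which YWHAB(3of3) lay at 1411, 768, 2519.8 and 0 TPM in young libraries and 1065, 1451, 1245 and 1585 TPM in old ones. Together with the calmodulins they took 0.544% to 1.05% of TPM in young and 0.644% to 0.962% in old libraries, and 2 of the 10 genes tested were higher and 0 lower in old libraries at an unadjusted p under 0.05.

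The remaining lists held few members or none. Translation factors had 4 of the 77 rows, namely EEF1A1, EEF2(1of2), PABPC1A and EIF3C, and took 0.699% to 2.61% of TPM in young and 0.591% to 0.978% in old libraries. Of 51 tested, 2 were higher and 1 lower in old libraries at an unadjusted p under 0.05. Histones and chromatin proteins had 7 members and took 1.46% to 11.8% of TPM in young and 2.56% to 3.08% in old libraries, with 3 of 103 higher and 1 lower. The share of 11.8% was that of young replicate 3, where HMGB1(1of2), not a member, lay at 47726 TPM. In recovered reads the list took 1.69% to 2.96% in young and 1.56% to 2.04% in old libraries, with overlap. The list for RNA polymerase I and ribosome making had HEATR6, NCL(2of2) and MYBBP1A as members. HEATR6, which the list took in by its name pattern, lay at 620.0, 1157, 633 and 0 TPM in young libraries and 579, 425, 521 and 298 TPM in old ones, from 49 reads. MYBBP1A, a nucleolar protein, lay at 142, 465, 169 and 0 TPM in young libraries and 107, 244, 83.6 and 399 TPM in old ones. The cell cycle list had CDK5R1B as its only member, an activator of the kinase CDK5 known from neurons, and 1 of its 27 genes tested was higher and 0 lower. Immediate early and clock genes had 0 members among 27 genes above 0. The mitochondrially encoded list had 3 members, the 2 COII copies and ND4, a subunit of complex I, which lay at 0, 3299.7, 3607 and 0 TPM in young libraries and 763, 0, 891 and 1701 TPM in old ones, and 4 of its 10 genes tested were higher and 0 lower at an unadjusted p under 0.05, beside 2.96% and 0.108% of all genes. This list took 0% to 2.67% of TPM in young and 1.23% to 2.74% in old libraries, with overlap.

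Of the 356 members, 148 were in no list. Among these, OAZ1A and OAZ1B encode antizyme, an inhibitor of polyamine synthesis that is known for a ribosomal frameshift in its coding sequence. OAZ1B lay at 2525, 3299.7, 1202 and 0 TPM in young libraries and 1017, 1384, 2079 and 2268 TPM in old ones, and OAZ1A at 1246, 905, 1978 and 0 TPM in young libraries and 1045, 854, 977 and 2332 TPM in old ones. Both were above 0 in all libraries but young replicate 4. XBP1, a transcription factor of the unfolded protein response, lay at 596, 0, 0 and 6415 TPM in young libraries and 599.8, 613, 526 and 669 TPM in old ones. The old XBP1 values spanned 526 to 669 TPM, from 2 to 4 reads each, and the highest young value rested on 3 reads. MARCKSL1, a substrate of protein kinase C at the membrane, lay at 2301, 2506, 0 and 0 TPM in young libraries and 1158, 1577, 2706 and 0 TPM in old ones. These 4 genes were chosen after their values were seen.

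Markers of microglia, retina and blood gave few reads. The muscle list held 36 reads in young and 43 in old libraries, against 25 and 105 for astroglia and 32 and 92 for myelin. Of 16 microglia and macrophage rows, 3 were above 0 (1 read in young and 4 in old libraries), no member was among them, and CSF1R, AIF1, PTPRC and C1QB were at 0 in all libraries. All 74 retina and photoreceptor rows were at 0. Hemoglobin was present as 3 copies of HBZ, and the blood list took 0% to 0.461% of TPM in young and 0.163% to 0.387% in old libraries. The muscle list had 34 of 128 rows above 0, and its 2 members were PYGM(1of4), a glycogen phosphorylase, and MYH10(2of3), a nonmuscle myosin that the symbol pattern of the list also took in. Contractile genes of skeletal muscle were among the rows above 0. MYH8(1of3), a muscle myosin heavy chain, held 7 reads in young libraries and 0 in old ones. MYL1(2of2) (3171 TPM), MYH4(3of5) (2954 TPM) and TNNI2(2of2) (2169 TPM), a myosin light chain, a myosin heavy chain and a troponin, were above 0 in young replicate 2 alone. Their count of 1 read each is set by the recovery of reads and is not a measurement. MYLPFA, another myosin light chain, lay at 3203 TPM in young replicate 3 and 461 TPM in old replicate 2. TNNT3A, NEB(2of3) and TTN(4of8) were above 0 in old libraries alone. CKMA, CKMB, RYR1 and TNNT3 were at 0 in all libraries. The muscle list took 0.676% to 0.988% of recovered reads in young and 0.297% to 0.389% in old libraries, without overlap, from 36 and 43 reads. Its TPM shares, 0.473% to 1.73% and 0.260% to 0.597%, overlapped. The symbol pattern also took in PVALB, PVALB4, PVALB6, CKMT1, MYH10(3of3), MYH11A, MYH14(2of2) and TPM1, which are not specific to skeletal muscle. Many rows of the muscle list were above 0 in a single library, where the recovery sets the count to 1 read. The collagen and matrix list took 1.18% to 1.85% of recovered reads in young and 0.385% to 1.04% in old libraries. These shares came from 55 and 84 reads and also did not overlap, whereas its TPM shares, 0.577% to 1.45% and 0.131% to 0.711%, did. The symbol pattern of this list also took in TNRC18, TNRC5, TNRC6B and COL4A3BP, which are not matrix genes. COL14A1(10of10) alone lay at 8165 TPM in young replicate 4 and was at 0 elsewhere, so that its count of 1 read is also set by the recovery. The 6 members of this list were ACANA, COL1A1A, COL1A1B, COL1A2, HAPLN1(1of2) and RELN. COL1A1A, a chain of type I collagen, lay at 861, 0, 820.2 and 1236 TPM in young libraries and 173, 0, 101 and 0 TPM in old ones. The part of tissue around the brain in these shares was not tested.

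**Figure D3:**
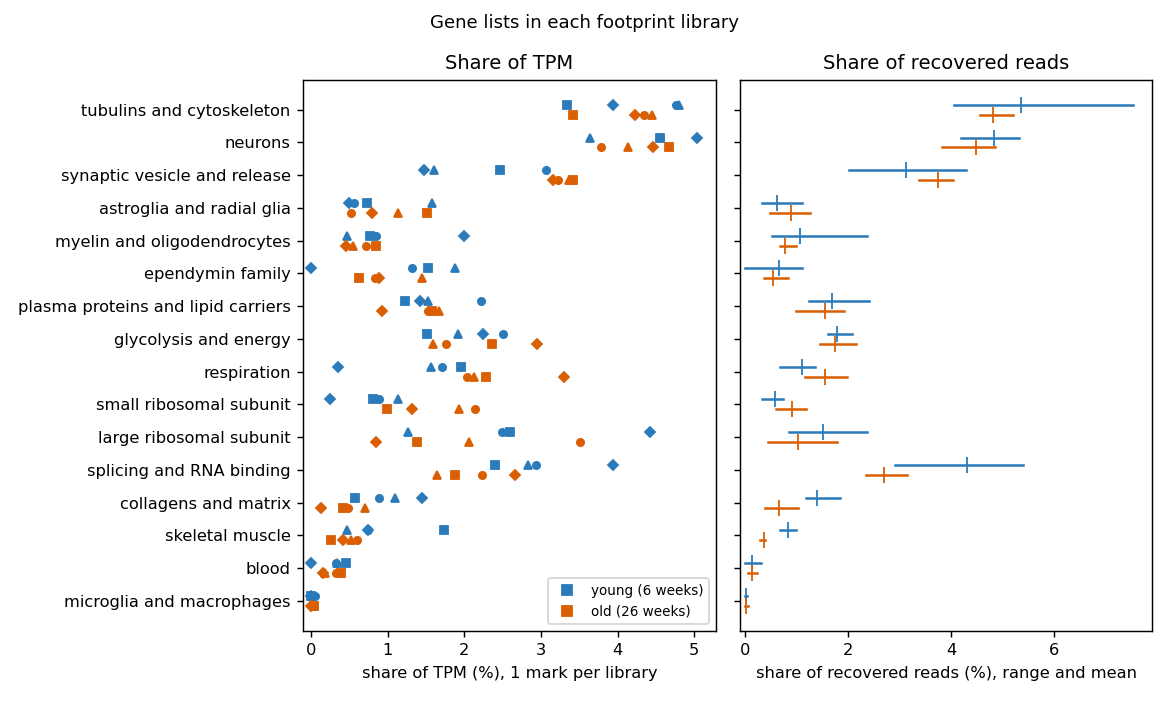
Share of TPM (left, 1 mark per library, shapes for replicates 1 to 4) and share of recovered reads (right, line from lowest to highest library, tick at the mean) taken by 16 gene lists in young (blue) and old (orange) libraries, both in percent. The synaptic and respiration lists do not overlap between the ages on the left and the collagen and muscle lists do not on the right, and no list is without overlap on both.

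For 8 of the 356 members the values of the ages did not overlap. Over all genes tested, all old libraries lay above all young ones for 58 (0.897%) and below for 3 (0.0464%), and 5 and 3 of these were members. These counts depended on the scaling and the libraries. With the dominant rows kept, 0 members lay higher and 2 lower, beside 52 and 2 of all genes. With median-of-ratios scaling the counts were 24 and 2, beside 77 and 2. Without young replicate 4 they were 8 and 21, beside 61 and 28. A gene can lie lower throughout only if all 4 young libraries are above 0, which held for 29 members. The 3 lower members were TUBB5, RPL14 and CPLX1(2of2), given above, and the higher ones were NDRG4, RBP4, SERBP1A, RPS10 and MAP1B(2of3). NDRG4, a protein of the NDRG family that is abundant in brain, lay at 1046, 1139, 0 and 0 TPM in young libraries and 1842, 3583, 1537 and 2348 TPM in old ones, with a log2 fold change of 6.06 and a standard error of 2.45 (limma adjusted p = 0.472). RBP4, the plasma carrier of retinol, lay at 1165, 0, 0 and 0 TPM in young libraries and 2346, 1597, 1370.4 and 1308 TPM in old ones. SERBP1A, an RNA-binding protein found on ribosomes, lay at 361, 0, 0 and 0 TPM in young libraries and 544, 988, 636 and 405 TPM in old ones. Besides NDRG4, each of these was above 0 in young replicate 1 alone among the young libraries, with 1 read there. MAP1B(2of3), a microtubule-associated protein of neurons, lay at 127, 0, 0 and 0 TPM in young libraries and 192, 261, 149 and 143 TPM in old ones. The old libraries had 1 to 3 reads of MAP1B(2of3), and 26 reads of NDRG4. The log2 fold changes of RBP4, SERBP1A and MAP1B(2of3) were 8.11, 7.13 and 5.76, with standard errors of 2.75, 2.90 and 3.0 and a limma adjusted p of 0.472 for each.

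The members above 0 in all 8 libraries can be compared without values of 0. These 23 were ITFG2(1of2), HMGB1(2of2), APOA1, MAP7D2, TFA, TUBB4B(2of2), TUBB5, GJA1, HSPA8(4of4), VSNL1, HSP90AB1, PTMAA, PRSS23(2of2), EEF1A1, HNRNPA0L(2of3), CALM2A(3of3), HNRNPABA, TPI1(1of2), ATP5A1(1of2), KRT8(2of2), CPLX1(2of2), MAP1AB(1of2) and VCP(1of2). KRT8(2of2), an epithelial keratin, lay at 1269, 395, 1725 and 1300.5 TPM in young libraries and 821, 373, 107 and 407 TPM in old ones. VCP(1of2), an ATPase that extracts proteins for degradation, lay at 131, 571, 312 and 941 TPM in young libraries and 329.7, 89.8, 154 and 294 TPM in old ones. All 23 had a lower mean TPM in old than in young libraries, with a median log2 ratio of -0.99, or -0.44 without young replicate 4, when 20 were lower and 3 higher. On the log2(TPM + 1) scale, 22 were lower and 1, MAP1AB(1of2), was higher, with a median of -0.68, whereas with median-of-ratios scaling 12 were higher and 11 lower, with a median of 0.045. None of the 23 passed the threshold in any fit that was run (lowest limma adjusted p 0.425). A gene in every library had to be above 0 in young replicate 4, where 1 read is worth the most.

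**Figure D4:**
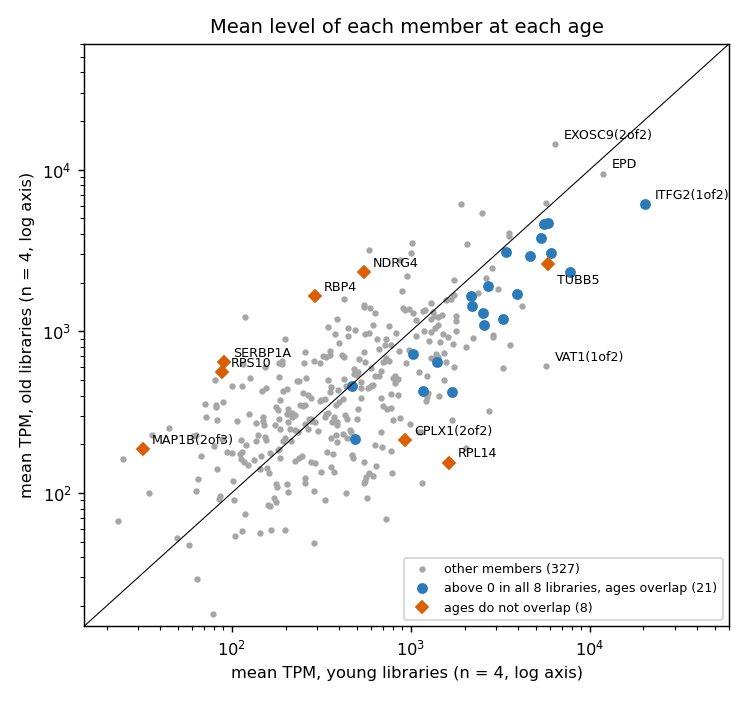
Mean TPM of each of the 356 members in young (x axis) and old libraries (y axis), both on log axes, with the line of equal means. Members above 0 in all 8 libraries (blue) lie below the line, and the 8 members whose ages do not overlap (orange) comprise 5 above it and 3 below it.

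The order of the members was partly shared between the ages. By mean TPM, 6 of the first 10 members were shared (60% of each list), 13 of the first 20 (65% of each) and 29 of the first 50 (58% of each). EPD ranked 2 in young and 2 in old libraries, and ITFG2(1of2) ranked 1 and 5. APOA1 ranked 10 and 8, and TFA 11 at both ages. Among the first 20 at the young age alone were MAP7D2, MBPA, PTMAA, RHOA(1of3), STMN2B, VAT1(1of2) and VSNL1. Among the first 20 at the old age alone were CKBB, COII(1of3), CPLX1(1of2), GAPDHS, RPS25, SLC1A2B and TUBA1B(3of5). CPLX1(1of2) moved from rank 143 to rank 14, and VAT1(1of2) from rank 9 to rank 130, each from at most 11 reads. EPD led young replicates 2 and 3 and old replicates 1 and 3, EXOSC9(2of2) led young replicate 1 and old replicate 4, and ITFG2(1of2) led young replicate 4 and old replicate 2. Across the 356 members, Spearman's rho of the mean TPM of young and old libraries was 0.667. These points share each gene's length, which acts on the TPM of every library alike. Counted in recovered reads, 16 of the first 20 were shared.

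The agreement of libraries differed with the genes and the values that entered. Across the 356 members, the median Spearman's rho was 0.57 over the 6 pairs of old libraries (0.46 to 0.63), 0.20 over the 6 pairs of young libraries (0.07 to 0.28) and 0.28 over the 16 pairs between ages (0.08 to 0.55). Young replicate 1, which held the most recovered reads of the young libraries (2029), had a median rho of 0.51 with the old libraries and of 0.22 with the other young ones. Young replicate 4, with 296 reads and 71 members above 0, had the lowest rho with every other library, 0.07 to 0.18. The members were chosen by the libraries in which they were above 0, which for 227 of them included all 4 old libraries and for 29 all 4 young ones, so that the order of these medians is no result about age. Over only those members above 0 in both libraries of a pair (40 to 304 members), the medians were 0.72 within old, 0.72 within young and 0.72 between ages. In recovered reads of 325 members, which are not divided by gene length, they were 0.41, 0.14 and 0.20. These values describe agreement across genes, which share length and library depth and are not independent replicates, and no test was made of them. Without replicate 4 of both ages, the medians in TPM across the 356 members were 0.62 within old, 0.24 within young and 0.35 between ages.

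**Figure D5:**
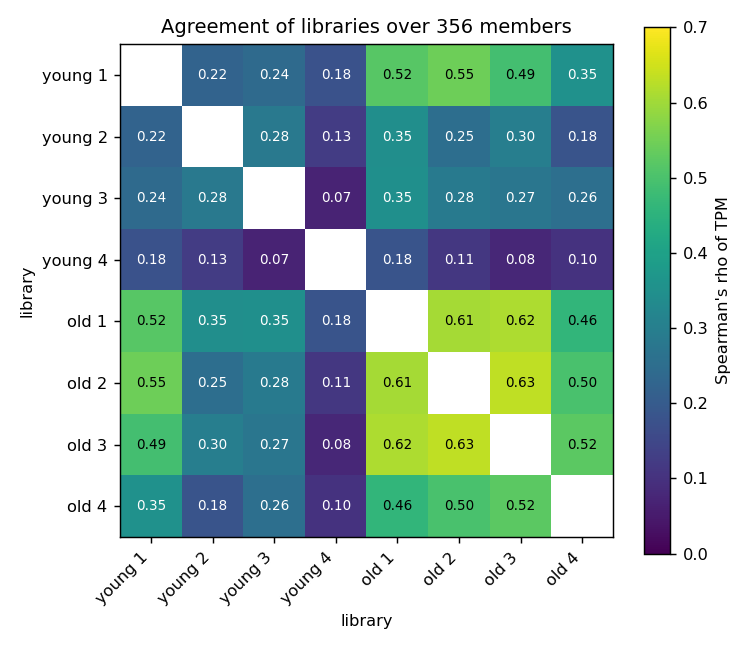
Spearman's rho of TPM across the 356 members for each pair of footprint libraries, with the value printed in each cell and colour from 0 (dark) to 0.7 (light). Old replicates 1 to 3 share the highest values (0.61 to 0.63), young replicate 1 is the nearest to them among the young libraries, and the row of young replicate 4 is lowest (0.07 to 0.18).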

How the data were processed

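Footprints were measured by ART-seq in 4 young and 4 old brain libraries. The authors deposited FPKM values per gene (fragments per kilobase of gene length and library size), made with STAR on the NotFur1 genome and RSEM 1.3.1 according to the study's methods. FPKM values carry no counts, so that depth was read from recovered whole reads (tolerance 0.03 of a read). These were the smallest whole numbers that fit, for 6384 of 6472 rows (98.6%), and 1 by construction for rows above 0 in a single library. The 4 dominant rows were left out and each library was rescaled to 1000000 (TPM). Old and young libraries were compared with limma 3.58.1 (R 4.3.3, trended empirical Bayes, pseudocount 1, mean of at least 1 TPM, Benjamini-Hochberg adjustment, threshold 0.05). The fit had first been run on simulated data, and the share of changes that it can call at this depth is not reported here. Single values per library were compared with a two-sided exact permutation test. Alternatives changed the pseudocount, filter, scaling, dominant rows, block and libraries. Genes were named by fixed rules (the 20 highest members, up to 4 per list, those above 0 in all 8 libraries, up to 10 without overlap between the ages, and every called gene), and a few others after their values were seen. Members and lists (28, of which 3 were added after seeing the symbols) were chosen with earlier results of these data known. Some genes that these rules name are not reported here. RNA libraries were not used here, and no sequences are shown.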

Additional observations from a re-analysis of the deposited data

Results flagged for a closer look

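In groups of 4 libraries, a highest or lowest value whose gap to its neighbour exceeded Dixon's critical value as a share of the group's range was looked for in 68 groups of values, and 7 were found. Chance gives about 1 in 20 for continuous values, which does not hold for the 4 groups below with 1 read and otherwise 0, since these meet the criterion by construction. The dominant rows took 90.3% of the signal in young replicate 4, against 95.8% to 96.6% in the other young libraries. HSPA8(4of4) lay at 5222 TPM in young replicate 1, against 2624 to 2883 TPM in the other young libraries. VSNL1 lay at 580.1 TPM in old replicate 3, against 1986 to 2215 TPM in the other old libraries. In young replicate 1, RBP4 lay at 1165 TPM, SERBP1A at 361 TPM, RPS10 at 352 TPM and MAP1B(2of3) at 127 TPM, each from 1 read, and all 4 were at 0 in the other young libraries.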

How the results depend on the processing

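No gene was called under the 8 alternatives to the fit that kept all libraries and had no block, nor with replicates 1 to 3 of each age only, an alternative chosen after seeing the data. Leaving out single libraries gave 0 to 4 called genes (4 without young replicate 1 and 2 without young replicate 4). With the replicate block 0 genes were called. Deviations of same-numbered libraries from their age means had correlations of -0.08 to 0.03. Since 45.1% of the members' values above 0 were 1 read, these correlations cannot decide whether the numbers pair the samples. The median log2 fold change of all genes, 1.90, became 0.95 with the dominant rows kept and 2.01 with median-of-ratios scaling. The 356 members became 634 with at least 4 libraries, 187 with at least 6, and 207 to 335 when single libraries were left out. The median agreement within young libraries was 0.061 as Pearson's r of log2(TPM + 1) and 0.67 as Spearman's rho over the genes above 0 in all 8 libraries. Within old libraries it was 0.25 and 0.76, and 0.41 in recovered reads, and between ages 0.066 and 0.76. The difference in the share of the dominant rows ranged from -0.77 to 1.46 percentage points when single libraries were left out, and was below 0 without young replicate 4 or old replicate 4.

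Of 520 log2 fold changes of 29 named members under the alternatives, 500 kept their sign and none passed the threshold. With median-of-ratios scaling the sign turned for HMGB1(2of2) (0.35), APOA1 (0.47), MAP7D2 (0.24), TFA (0.15), TUBB4B(2of2) (0.079), GJA1 (0.085), HSPA8(4of4) (0.63), HSP90AB1 (0.12), EEF1A1 (0.41), CALM2A(3of3) (0.045) and ATP5A1(1of2) (0.38). With replicates 1 to 3 of each age only it turned for MAP7D2 (0.42) and TUBB4B(2of2) (0.035), and with the dominant rows kept for MAP1AB(1of2) (-0.39). Without single libraries the values ran from -1.59 to 0.46 for MAP7D2, from -0.20 to 0.14 for HSPA8(4of4), from -0.77 to 0.17 for ATP5A1(1of2) and from -0.15 to 0.48 for MAP1AB(1of2). The cause was not tested. Depth limits single values: 45.1% of the values above 0 of the 325 members with recovered reads were 1 read.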
